A study of Drosophila melanogaster with 3 samples.

Results

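The genes described here make and store the brown eye pigment of Drosophila melanogaster, and they were read from 3 two-colour cDNA arrays that set homozygous kep1 mutant males against wild-type males. The set holds 10 genes, chosen by name: the ABC transporters white (w), scarlet (st) and brown (bw), the ommochrome enzymes vermilion (v), cinnabar (cn) and cardinal (cd), and the granule trafficking genes lightoid (ltd), garnet (g), ruby (rb) and claret (ca). Their probes were found by CG number in the spot names of the scanner tables. Of the 10 genes, 8 were matched to a probe, and with scarlet on 2 clones this gave 9 of the 11744 probes on the array. No probe was matched to white, the gene whose w1118 allele names the wild-type stock, or to garnet, and neither was analysed here.

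The mutant RNA came from kep1-/kep1- males and was labelled with Cy5, and the wild-type RNA came from w1118 males and was labelled with Cy3. The design text places both in heads of flies aged 3 to 4 days and counts 3 independent RNA samples, so that each array gives 1 ratio of mutant over wild type; the labels of the samples themselves say male RNA and name no body part. The w1118 stock carries a loss-of-function allele of white and has white eyes. The labels give neither the white allele nor the eye colour of the mutant males, nor the nature of the kep1 lesion. Dyes were not swapped, so genotype and a dye effect on a given probe cannot be told apart.

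Brown ommochromes are made from tryptophan. Vermilion, a tryptophan oxygenase, opens the pathway towards kynurenine, Cinnabar hydroxylates kynurenine, and Cardinal is a peroxidase-like enzyme that acts in the last step to xanthommatin. White pairs with Scarlet to carry the ommochrome precursor into the pigment granule, and with Brown to carry the precursors of the red pteridines. The granules are lysosome-related organelles: Garnet and Ruby are subunits of an adaptor complex that sorts cargo to them, Lightoid is a small GTPase of the Rab family, and Claret resembles guanine nucleotide exchange factors and acts with Lightoid. Several of these genes also serve the Malpighian tubules, and vermilion the fat body.

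No gene of the set passed the threshold between mutant and wild type in the limma fit over all 11733 probes tested (Benjamini-Hochberg adjusted p under 0.05), which called 0.145% of all probes. At an unadjusted p under 0.05 in the same fit there was 1 of the 9 probes, vermilion, on the lower side, where 9.25% of all probes lay, and 0 on the higher side, where 6.24% lay. With plain background subtraction the same unadjusted threshold held 2 probes on the higher side, brown and cinnabar (6.26% of all probes), and vermilion on the lower side (10.3%). With print-tip loess it held 1 on the higher side, a scarlet clone (6.6%), and vermilion on the lower side (9.34%). The median log2 ratio of the 8 measured genes was 0.06, against -0.0069 for all 9162 genes tested, each taken by its brightest probe. The median size of the log2 ratio, sign ignored, was 0.08 in the 8 genes and 0.08 in all genes. Of the 9 probes, 4 were above 0 and 1 was below 0 on all 3 arrays, while 4 had mixed signs; over all probes tested, 18.4% were above 0 and 20.5% below 0 on every array, 39% together.

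**Figure D1:**
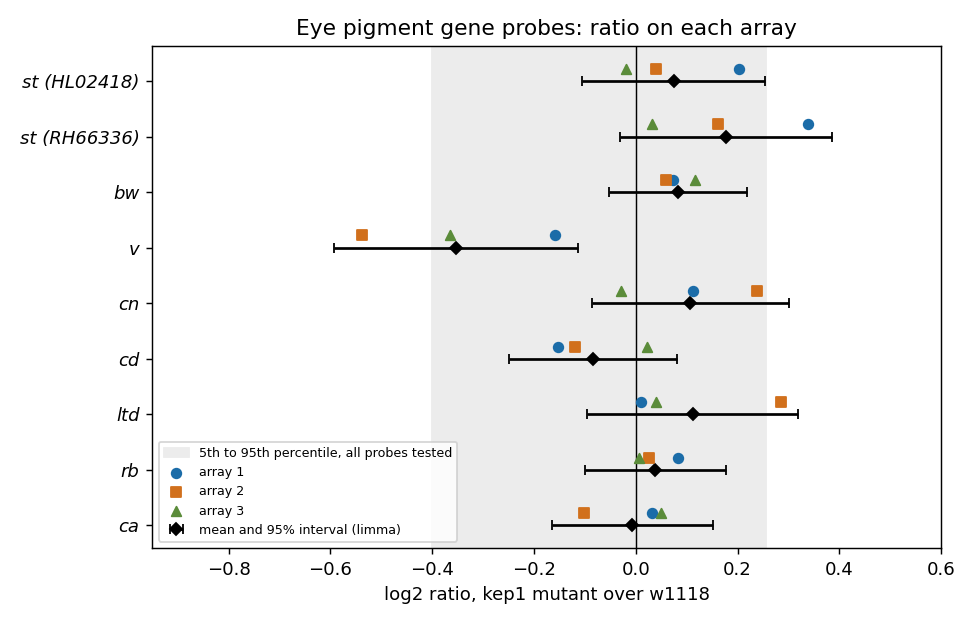
Log2 ratio of kep1 mutant over w1118 for each probe of the set (x axis), with 1 coloured point for each array, the mean as a diamond and its 95% interval from limma as a bar. The grey band spans the 5th to 95th percentile of all probes tested; vermilion (v) is the probe whose 3 points all lie below 0, at -0.16, -0.54 and -0.37.

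Most of these spots were faint. The 95th percentile of the blank spots, used here as a level that a printed spot with no cDNA seldom exceeds, was 310.2, 127.8 and 306.1 in the mutant channel of arrays 1, 2 and 3, and 343, 112 and 445 in the wild-type channel. Both channels exceeded it for 2 of the 9 probes on array 1, for 6 on array 2 and for 1 on array 3. Taken by single channel, 45.0%, 71.6% and 39.9% of all probes exceeded it in the mutant channel of arrays 1, 2 and 3. In the wild-type channel 41.8%, 80.4% and 31.8% did. These shares are not the match of the counts above, since the share with both channels above it was not computed for single arrays. Lightoid was the member above it in both channels on every array, as were 27.1% of all probes tested. The probes of brown, cinnabar and ruby were above it in both channels on no array, as were 28.5% of all probes. Their ratios below thus compare signals within the range of blank spots. All 9 probes passed the looser filter on local background that 11733 of 11744 probes passed. Foreground intensities below are raw, and the channels differed in level. The median over all probes was 274, 254 and 227 in the mutant channel, against 291, 307 and 248 in the wild-type channel. The order of raw intensities can therefore differ from the sign of the normalised ratio.

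**Figure D2:**
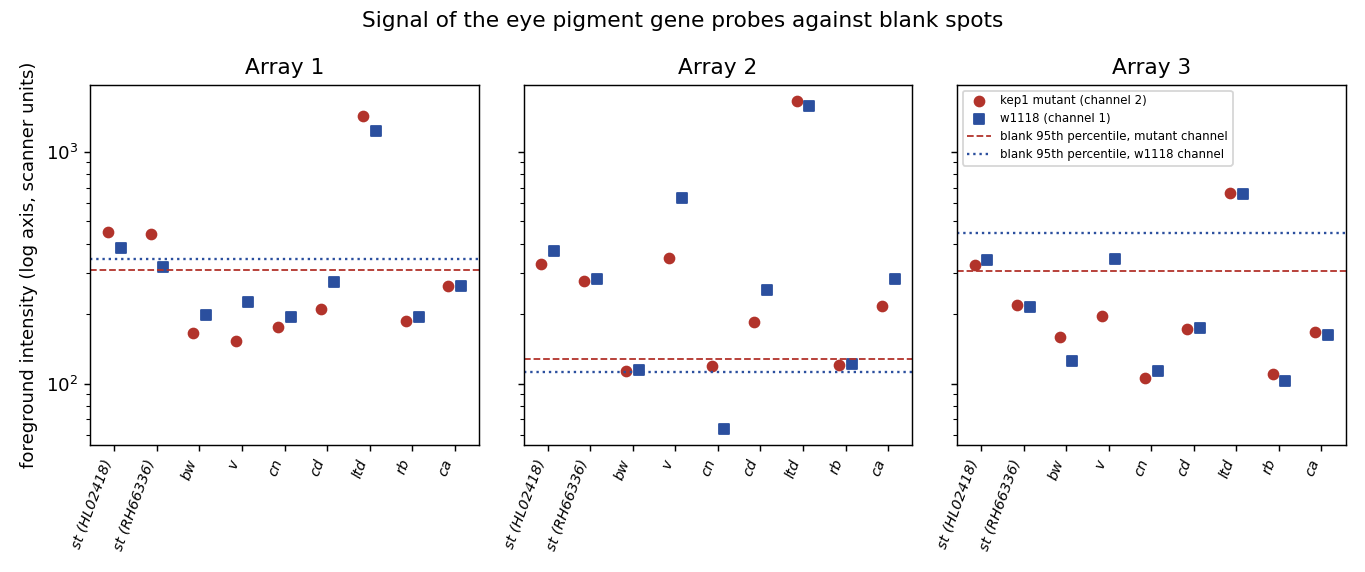
Mean foreground intensity of the duplicate spots (log axis, scanner units) of each probe of the set on each array, with the mutant channel as red circles and the w1118 channel as blue squares. Dashed and dotted lines mark the 95th percentile of the blank spots in the mutant and the w1118 channel; on array 3 only lightoid (ltd) lies above both lines in both channels.

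Among the transporters, scarlet was measured on 2 clones, both from adult head libraries. On clone RH66336 the foreground intensity was 440.4, 276 and 218 in the mutant on arrays 1, 2 and 3, against 318, 283 and 214 in wild type. The mutant was clearly the brighter channel on array 1 only, and the ranges of the 2 genotypes overlapped. The normalised log2 ratios were 0.34, 0.16 and 0.03, a mean of 0.18 ± 0.15 (SD, n = 3 arrays; limma adjusted p = 0.392). On clone HL02418 the intensities were 450.2, 327 and 323 in the mutant, against 384, 372 and 341 in wild type. The log2 ratios of this clone were 0.20, 0.04 and -0.02, a mean of 0.07 ± 0.12 (SD, n = 3; limma adjusted p = 0.688). Both scarlet probes had their highest ratio on array 1, but there the duplicate spots of HL02418 read 0.47 and -0.06. Over the alternatives the mean lay between 0.097 (without array 1) and 0.26 for RH66336, the scarlet clone with an unadjusted p of 0.043 under print-tip loess in limma, and between 0.010 (without array 1) and 0.12 for HL02418.

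Brown, the partner of White in pteridine transport, had a foreground intensity of 165, 114 and 158 in the mutant on arrays 1, 2 and 3, against 197, 115 and 125 in wild type. In these raw values neither genotype was brighter on every array. After normalisation the log2 ratios were 0.07, 0.06 and 0.12, a mean of 0.08 ± 0.03 (SD, n = 3; limma adjusted p = 0.536). The duplicate spots of array 1, at 0.25 and -0.10, lay on opposite sides of 0. The mean was 0.20 ± 0.21 (SD, n = 3) with no background subtraction and 0.35 with plain subtraction (limma adjusted p = 0.262). Brown is on chromosome arm 2R, as is kep1, with 218 annotated genes between them in the Release 6 gene table. Cinnabar and lightoid lie on the same arm, with 2691 and 2412 genes between them and kep1.

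Vermilion had the lowest mean ratio of the set, without passing the threshold. Its probe, from an adult head library, had a foreground intensity of 153, 348 and 196 in the mutant on arrays 1, 2 and 3, against 225, 633 and 345 in wild type. The mutant channel was the dimmer on every array, although the ranges overlapped between arrays. Both channels were above the blank level on array 2 and neither was on arrays 1 and 3. The log2 ratios were -0.16, -0.54 and -0.37, a mean of -0.35 ± 0.19 (SD, n = 3), or 0.783-fold, with a 95% interval of 0.663-fold to 0.924-fold. The limma adjusted p was 0.187 and the unadjusted p 0.0141, a value that 7.53% of all probes reached or undercut. Duplicate spots differed by 0.03, 0.0048 and 0.0039 on the 3 arrays, against a median difference of 0.10 over all duplicate pairs. The design text names heads and the sample labels name no body part. In such RNA, fewer cells that contain a transcript and less of it per cell cannot be told apart.

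The size of the vermilion ratio and its call differed between ways of processing. With plain subtraction the log2 ratios were -0.52, -0.60 and -0.81, a mean of -0.64 ± 0.15 (SD, n = 3), or 1.56-fold lower in the mutant, and the probe passed (limma adjusted p = 0.0486). Plain subtraction called 3.32% of all probes, and 2.45% on the lower side. The deposited log2 ratios, centred on each array's median, were -0.49, -0.65 and -0.78 for vermilion, a mean of -0.64 ± 0.15 (SD, n = 3; limma adjusted p = 0.0442), in a fit that called 3.61% of all probes and 2.57% on the lower side. With no subtraction the mean was -0.56 ± 0.22 (SD, n = 3; limma adjusted p = 0.0679). Under all 11 alternatives that gave a value the mean was negative, from -0.64 to -0.26, and the limma adjusted p lay between 0.0442 and 0.513. Without array 3 its unadjusted p was 0.0583 in limma.

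**Figure D3:**
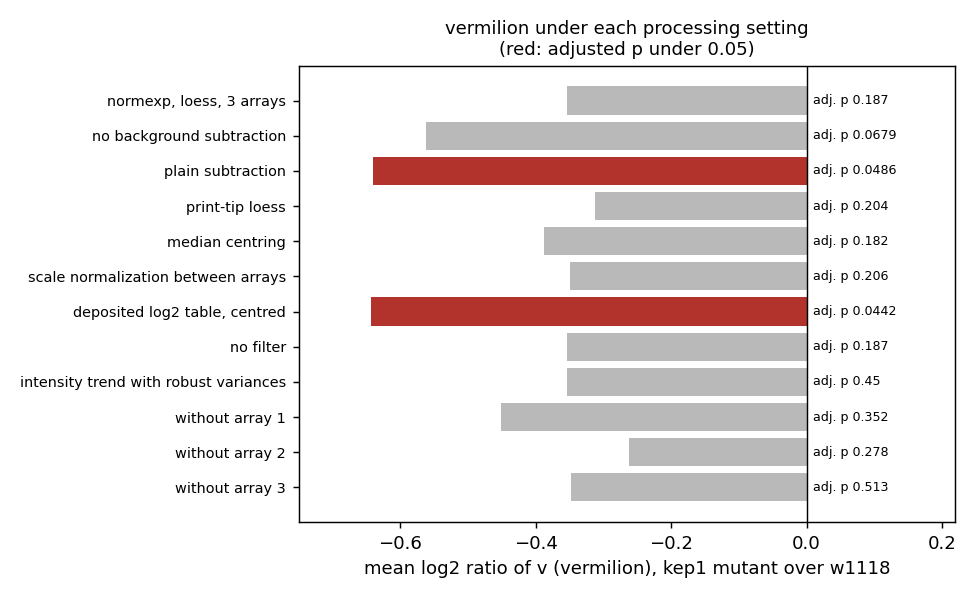
Mean log2 ratio of vermilion (v), kep1 mutant over w1118, under each processing setting (bars from 0), with the limma adjusted p beside each bar. Red bars mark the 2 settings in which the probe passed at an adjusted p under 0.05; bars run from -0.64 to -0.26.

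The other enzymes of the pathway did not pass. Cinnabar had a foreground intensity of 176, 118 and 106 in the mutant on arrays 1, 2 and 3, against 193, 64.0 and 114 in wild type. Before normalisation the wild-type channel was dimmer on array 2 and brighter on the other arrays. Its log2 ratios were 0.11, 0.24 and -0.03, a mean of 0.11 ± 0.13 (SD, n = 3; limma adjusted p = 0.581). With no background subtraction the array 2 ratio was 0.93 and the mean 0.30 ± 0.55 (SD, n = 3). With plain subtraction the mean was 0.51 (limma adjusted p = 0.298), and without array 2 it was 0.041.

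Cardinal, on a clone from a testis library, had a foreground intensity of 209, 184 and 172 in the mutant, against 273, 254 and 174 in wild type. In raw foreground the mutant was the dimmer channel on each array, by little on array 3. The log2 ratios were -0.15, -0.12 and 0.02, a mean of -0.08 ± 0.09 (SD, n = 3; limma adjusted p = 0.612). Over the alternatives the mean lay between -0.18 and -0.049, the value nearest 0 being that without array 1.

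The wider list for this pathway added kynurenine formamidase (KFase), kynurenine aminotransferase (Kyat) and karmoisin (kar), an eye colour gene. None of its 6 measured members passed in limma, and the median was -0.02. Vermilion was the 1 member with an unadjusted p under 0.05 in limma, on the lower side, where 9.25% of all probes lay. Kyat, which draws kynurenine away from pigment synthesis, stood at -0.16 ± 0.14 (SD, n = 3), with ratios of -0.30, -0.03 and -0.14.

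Of the trafficking genes, lightoid gave the values least limited by faint spots. Its probe had a foreground intensity of 1424, 1649 and 664 in the mutant on arrays 1, 2 and 3, against 1222, 1574 and 656 in wild type. Before normalisation the mutant channel was the brighter on each array, by little on arrays 2 and 3, and the ranges overlapped. After normalisation the difference was largest on array 2. The log2 ratios were 0.01, 0.29 and 0.04, a mean of 0.11 ± 0.15 (SD, n = 3; limma adjusted p = 0.587), with a 95% interval of 0.936-fold to 1.25-fold. Without array 2 the mean was 0.025, and the highest over the alternatives was 0.21, with the deposited log2 table.

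Claret had a foreground intensity of 264, 217 and 166 in the mutant, against 263, 281 and 162 in wild type. The channels were nearly equal on arrays 1 and 3, and wild type was the brighter on array 2. The log2 ratios were 0.03, -0.10 and 0.05, a mean of -0.0068 ± 0.08 (SD, n = 3; limma adjusted p = 0.976), and the sign of this mean turned with the processing. Ruby had a foreground intensity of 186, 119.9 and 110.0 in the mutant, against 194, 122 and 103 in wild type, with log2 ratios of 0.08, 0.03 and 0.0070 and a mean of 0.04 ± 0.04 (SD, n = 3; limma adjusted p = 0.794). Over the alternatives the ruby mean lay between 0.017 (without array 1) and 0.15 (plain subtraction). Neither genotype of claret or ruby was brighter in raw foreground on all arrays, while the normalised ratios of ruby were above 0 on each.

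Beyond ltd, rb, ca and g, the trafficking list took in the other adaptor subunits, the tethering complex that brings vesicles to lysosome-related organelles, and related eye colour genes. Of its 22 genes 16 were measured, 0 passed in limma and the median was 0.01. An unadjusted p under 0.05 in limma was reached by 1 member, on the higher side, where 6.24% of all probes lay. Rab7, a GTPase of late endosomes, stood at 0.29 ± 0.06 (SD, n = 3), with ratios of 0.23, 0.34 and 0.31 (limma adjusted p = 0.123). The eye colour gene pink (p) stood at -0.21 ± 0.17 and the tethering subunit Vps11 at -0.12 ± 0.05 (SD, n = 3 each; limma adjusted p = 0.352 and 0.388). Only 1 of the 16, Rab7, exceeded the blank level in both channels of all arrays, as did 27.1% of all probes tested. The level was exceeded in no channel by 5, a count whose share over all probes was not computed.

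The ABC transporters of the same subfamily as White gave a like picture. Of 15 genes 14 were measured, 0 passed in limma and the median was 0.03. An unadjusted p under 0.05 in limma was reached by 1 member on each side of 0, against 6.24% of all probes on the higher and 9.25% on the lower side. CG17646 stood at -0.34 ± 0.10 (SD, n = 3; limma adjusted p = 0.124), with ratios of -0.24, -0.43 and -0.34. Atet stood at 0.21 ± 0.13 (SD, n = 3; limma adjusted p = 0.272) on its brightest probe and at -0.02 ± 0.07 on the other. CG31689 stood at -0.28 ± 0.32 (SD, n = 3; limma adjusted p = 0.432), with ratios of 0.09, -0.43 and -0.49.

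The red pteridine pathway, which shares Brown and White with the genes above, held the gene of the pigment-related lists that passed. Of its 11 measured genes 1 rose in limma, sepia (se), an enzyme gene of red drosopterin synthesis, at 1.03 ± 0.09 (SD, n = 3; limma adjusted p = 0.0346). Over all probes tested, 0.145% passed in either direction. The sepia call was lost with scale normalization (limma adjusted p = 0.124), with the intensity trend (0.439), without array 1 (0.301) and without array 3 (0.181), at means of 0.98 to 1.05. An unadjusted p under 0.05 in limma was reached by 3 members, all higher in the mutant, where 6.24% of all probes lay. The median of the list was 0.01.

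**Figure D4:**
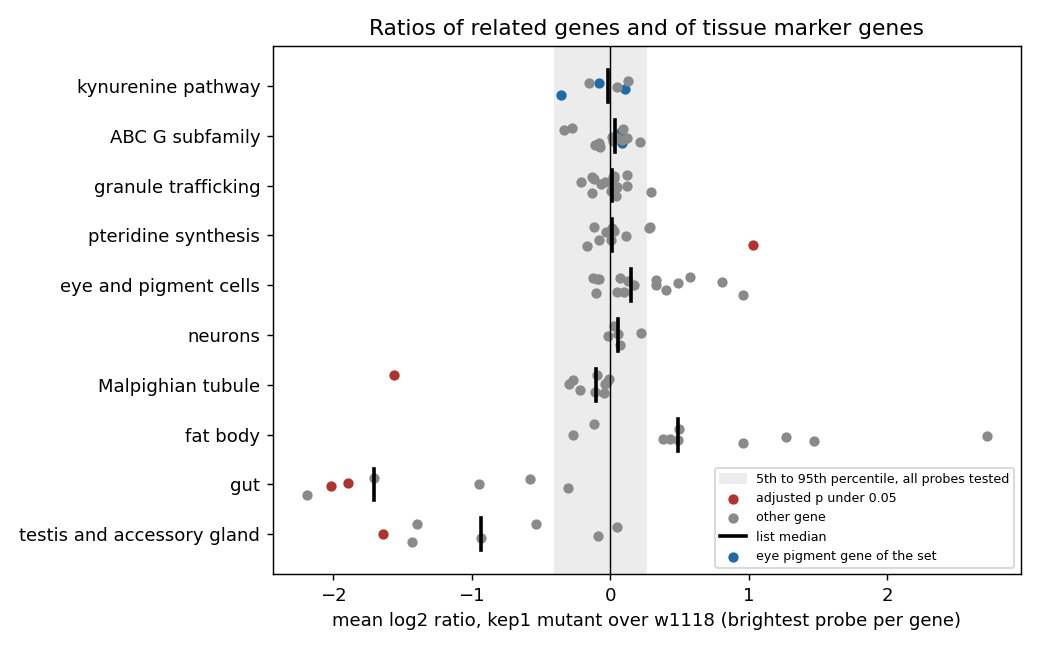
Mean log2 ratio of kep1 mutant over w1118 (x axis, brightest probe of each gene) for pigment-related lists and tissue marker lists, with list medians as black lines and the 5th to 95th percentile of all probes as a grey band. Blue points are genes of the set, red points passed at an adjusted p under 0.05; the gut and testis lists lie to the left, with medians of -1.71 and -0.93. The lists were chosen with earlier results of these data known.

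For 8 of the 9 probes, all but vermilion, the 95% interval of the ratio lay within 1.5-fold in either direction, as it did for 87.6% of all probes tested. With no background subtraction the intervals of 7 of the 9 probes did so, against 72.7% of all probes, and the exceptions were vermilion and cinnabar. The intervals are those of the mean in limma, with a variance drawn from the spread of the probe between arrays and from that of all probes. For spots in the range of blank spots the intervals bound the ratio of the spot signals. By construction, the offset of 50 draws the ratios of faint spots towards 0. The intervals of faint probes are therefore not bounds on a change in expression. With plain subtraction the means were 0.51 for cinnabar, 0.35 for brown and -0.64 for vermilion.

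The genes whose 3 log2 ratios lay closest to those of vermilion, by root mean square difference over the 3 arrays, were CG6961 (0.04), bic (0.05), CG1105 (0.05), sip3 (0.05) and CG3702 (0.05). Of 10431 probes compared, 48 lay within 0.1 of it.

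The kep1 probe had a foreground intensity of 254, 240.3 and 228 in the mutant, against 852, 865 and 1343 in wild type, a log2 ratio of -1.69 ± 0.40 (SD, n = 3; limma adjusted p = 0.0726). It passed with no background subtraction (-1.98; limma adjusted p = 0.00209), plain subtraction (-1.98; 0.00242), median centring (-1.70; 0.0329) and the deposited log2 table (-1.95; 0.000901). The highest adjusted p over the alternatives was 0.439, with the intensity trend. Eye and pigment cell markers were present, with 13 of 16 above the blank level in both channels of every array, against 27.1% of all probes tested. Their summed normalised signal was 61095, 70327 and 59426 in the mutant, against 49774, 72293 and 52117 in wild type, so the order of the genotypes turned on array 2. None of the 16 passed in limma, and the 5 with an unadjusted p under 0.05 were higher in the mutant, where 6.24% of all probes lay.

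Markers of other tissues were read beside the vermilion ratio. Their lists were chosen with earlier results of these data known, so their counts beside the shares of all probes are no test. Over all probes tested, 0.145% passed the threshold in either direction. Of 10 measured Malpighian tubule markers 1 fell in limma (LManVI, an alpha-mannosidase gene), and the median was -0.10. The 4 with an unadjusted p under 0.05 in limma, LManVI among them, were all lower in the mutant, where 9.25% of all probes lay. The 10 markers summed to 3041, 3730 and 3264 in the mutant, against 4419, 5305 and 4772 in wild type. Without LManVI, left out after its value was seen, the sums were 2493, 3022 and 2621 in the mutant, against 2798, 3379 and 2723 in wild type. LManVI was above the blank level in both channels of every array, and 3 of the 10, among them the urate oxidase gene Uro, were above it in no channel. The share of all probes above it in no channel was not computed. None of 10 fat body markers passed in limma, and the 5 with an unadjusted p under 0.05 were higher in the mutant, where 6.24% of all probes lay. The 10 summed to 16591, 23307 and 11558 in the mutant, against 8613, 11714 and 9638 in wild type. Of them, 7 were above 0 on every array, as were 18.4% of all probes tested. Yp1 and Yp2 had means below 0, at -0.12 and -0.27, and the Yp1 ratios were -2.54, 2.96 and -0.78. Of 7 measured gut markers 2 were lower past the threshold in limma, and all 7 were lower at an unadjusted p under 0.05. On that side lay 9.25% of all probes. The 7 summed to 6308, 13038 and 6507 in the mutant, against 16599, 28672 and 18777 in wild type. Both channels of every array were above the blank level for 5 of them. Of 7 measured testis and accessory gland markers 1 was lower past the threshold in limma. At an unadjusted p under 0.05 in limma 5 were lower, where 9.25% of all probes lay. These 7 markers summed to 4521, 12075 and 4428 in the mutant, against 9305, 19828 and 16224 in wild type. Again 5 of the 7 were above the blank level in both channels of every array, as were 27.1% of all probes tested. The part of these tissues in the vermilion ratio was not tested.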

How the data were processed

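RNA of 3 mutant and 3 wild-type samples was hybridised to spotted cDNA arrays, with wild type in channel 1 (Cy3) and mutant in channel 2 (Cy5), per the labels. The deposited scanner tables give a raw foreground and local background intensity for each spot, per the file headers. The image software is not given in the sources used here. The deposited table of log2 ratios equalled log2 of channel 2 over channel 1 foreground, uncentred, within 5.32e-05 at every spot with a value; it was empty at 2869 spots of array 2 and 32 of array 3. Array numbers follow the order of the records.

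limma 3.58.1 (R 4.3.3) corrected background by normexp with an offset of 50 and normalized each array by loess, in which only gene probes had weight. The 2 spots of a probe were averaged. A probe entered the test if, on 2 of 3 arrays, either channel lay over its background by more than 2 SDs of that background. limma tested the mean ratio against 0, two-sided, with Benjamini-Hochberg adjustment over 11733 probes. Only 3 arrays limit the precision. The p-values rest on the spread between these RNA samples, moderated by limma with that of all probes. No label describes the rearing of the samples. The steps were also run on simulated data, with changes set only on probes brighter than the median. Changes at fainter probes, and changes as small as those of this set, were not simulated.

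CG numbers were matched to the RefSeq Release 6 gene table, which named 10453 of 11744 probes and lists ltd as Rab32 and kep1 as qkr58E-3. The genes, the lists and the rule for named genes (every probe of the set; list genes past the threshold, else the 3 of smallest p; the 5 genes closest to the member of smallest p) were chosen with earlier results of these data known. Among tissue markers LManVI, Uro, Yp1 and Yp2 were named after their values were seen. No sequences were used.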

Additional observations from a re-analysis of the deposited data

How the results depend on the processing

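Of 100 values of the 9 probes under 12 alternatives, 94 kept their sign and their side of the threshold, 2 (vermilion, above) kept the sign and passed, and 4 changed sign. With no filter, the stricter filter and the intensity trend the ratios were the main ones, so no sign could change there. All sign changes were those of claret, at 0.040 with no background subtraction, 0.028 with plain subtraction and 0.0046 with scale normalization, and between -0.035 and 0.040 when 1 array was left out, the positive value being that without array 2. The count of genes of the set past the threshold was 0 except with plain subtraction and the deposited log2 table (1 each), and 0 with each array left out. Vermilion itself lay between -0.45 (without array 1) and -0.26 (without array 2). The median of the 8 genes was 0.11 with no subtraction, 0.13 with plain subtraction and 0.10 with the deposited table. It was 0.11 under the stricter filter, which left lightoid alone, and 0.013 to 0.061 with an array left out, the lowest without array 1. The listed related genes past the threshold numbered 0, instead of sepia alone, with scale normalization and the intensity trend (7 and 4 at an unadjusted p under 0.05 in limma), 0 under the stricter filter, which left 9 of the 42 genes and not sepia (1 at an unadjusted p under 0.05), and 0 to 1 with an array left out (0 without array 1 or 3). Over all probes the count of 17 became 434 with no subtraction, 390 with plain subtraction, 423 with the deposited table, 70 with median centring, 206 under the stricter filter, 249 at an adjusted p under 0.1, 0 with scale normalization or the intensity trend (1829 and 1197 at an unadjusted p under 0.05 in limma), and 0 to 100 with an array left out (0 without array 1 or 3, 100 without array 2). No subtraction, plain subtraction and the deposited table each change the background correction and the offset together, and the deposited table also the normalization; the cause of the shifts was not tested. Each ratio is taken within an array, so the test is itself paired by array and no further block was fitted.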
